A study of Drosophila melanogaster with 3 samples.

Results

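Promoter peaks of tagged Nf-YC whose summit lay inside the gene, 101 to 500 bp downstream of the nearest transcription start site (TSS), numbered 282 of the 7476 peaks in the thresholded set (3.77%). They were chosen by position alone. The summit of each peak was placed relative to the nearest TSS of a protein-coding transcript, on that transcript's strand. Peaks at head-to-head promoters, where divergent TSSs of different genes lie within 500 bp of each other, were left out, which removed 41 further downstream summits. The 282 members were 7.08% of the 3985 promoter peaks. The others were 1146 core peaks, with the summit within 100 bp of the TSS, 1493 upstream peaks, 101 to 500 bp before it, and 1064 head-to-head peaks.

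The samples were 3 biological replicates of whole Drosophila melanogaster embryos of mixed sex, 0 to 18 h old. They came from a transgenic line that stably expresses Nf-YC with GFP at its C terminus, and chromatin was recovered with an antibody against GFP. All samples belonged to 1 group, with no second genotype, stage or treatment, and untagged embryos were not analysed here. Each embryo collection mixed many tissues and stages, so a peak cannot be assigned to a cell type.

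NF-Y is a trimer of NF-YA, NF-YB and NF-YC. The B and C subunits form a histone-fold pair that contacts DNA without regard to sequence, and NF-YA reads the pentamer CCAAT. In mammals the factor is best known from sites a short distance upstream of the TSS. DNA just downstream of a fly TSS is also known for other features. It holds the first part of the transcribed region, near the start of which RNA polymerase II pauses after initiation. In many genes it also holds the start of a long first intron with enhancers. Pausing was not measured here.

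Sequence was read at 10 members to show the pentamer in place. These are the 10 strongest members with a match within 100 bp of the summit, leaving out 1 chromosome arm. Each is printed 5′ to 3′ on the strand that reads CCAAT, which is in capitals, at the match nearest the summit, from the Release 6 genome (dm6). Long windows are given only where the whole window was intronic.
SREBP, chr3L:19794310-19794338, minus strand, intron: aagcgctttcaaCCAATcagagggctcga
milt, chr2L:7037936-7037964, minus strand, 5' UTR: cgctctgtcgtgCCAATcgttatcgccgc
CG17292, chr2L:8370730-8370758, minus strand, 5' UTR: ccacccatttgcCCAATcaaatttgcatc
mael, chr3L:22724454-22724482, minus strand, 5' UTR: taaaggcggtaaCCAATgaacagcacgag
Gk2, chr3L:1738756-1738840, plus strand, intron: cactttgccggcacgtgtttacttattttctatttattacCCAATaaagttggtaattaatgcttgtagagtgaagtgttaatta
D2hgdh, chrX:2143077-2143105, minus strand, coding exon: ccccggcgctggCCAATctgcgcacatgc
Cdc42, chrX:19697608-19697692, plus strand, intron: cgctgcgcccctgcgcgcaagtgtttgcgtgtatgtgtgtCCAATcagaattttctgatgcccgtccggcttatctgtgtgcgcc
dikar, chr3L:6742397-6742481, plus strand, intron: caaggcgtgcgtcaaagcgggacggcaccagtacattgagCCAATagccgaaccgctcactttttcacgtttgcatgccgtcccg
dmrt11E, chrX:13368461-13368489, minus strand, intron: aatatagaagatCCAATggccgcacagat
Tmem214, chr2L:10967688-10967772, plus strand, intron: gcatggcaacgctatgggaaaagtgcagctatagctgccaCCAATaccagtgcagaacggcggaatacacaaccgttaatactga

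In SREBP, which encodes the transcription factor that controls lipid synthesis, the pentamer lay 58 bp from the summit in an intron. In dikar, a bromodomain protein gene, it lay 9 bp from the summit. The distance over the 101 members with a match had a median of 43 bp, and 60 matches lay within 50 bp. The nearest match read CCAAT on the gene's own strand at 52 of the 101. The pentamer was preceded by 2 purines at 26 of them. No share over other positions was taken for these counts, so they only describe the matches. In the thresholded set, CCAAT density within 50 bp of member summits was 1.11 times that at 300 to 500 bp.

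The signal value of the authors' peak caller, a score with no stated unit, ranged over the members from 246.6 to 44865. The lower quartile was 298.8, the median 394.8 and the upper quartile 610.9. The median over all thresholded peaks was 456.1. A small number of members were very strong and most were not: 17 members (6.03%) stood in the top 10% of the set, against 3.23% of core and 17.2% of upstream peaks. In the top 25% stood 38 members (13.5%), beside 13.2% of core and 36.0% of upstream peaks.

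The lists of replicate 3 stood apart before any comparison. Among the 7476 strongest peaks of each replicate's own list, downstream promoter peaks numbered 363 in replicate 1, 314 in replicate 2 and 195 in replicate 3. These were 4.86, 4.20 and 2.61% of the lists, a mean of 3.89 ± 1.16% (SD, n = 3). Upstream peaks, at 19.9 ± 1.13% (SD, n = 3), showed no such drop, with 1555 in replicate 3. The difference of 16.0 ± 1.95 percentage points (SD, n = 3) between upstream and downstream had the same sign in 3 of 3 replicates. Replicate differences were tested with an exact two-sided sign-flip permutation test, which gave p = 0.25 here. With 3 replicates this is the smallest p that this test can give, so by it no difference below could reach a threshold, and each is given with its SD and the number of replicates that show its direction. Library depth is unknown, because the files hold no read counts.

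The strongest member by far was at Psc (FBgn0005624), which encodes Posterior sex combs, a RING-finger subunit of Polycomb repressive complex 1. Its summit lay 156 bp downstream of the TSS in the 5′ UTR, in a peak spanning 12979483 to 12981780 on arm 2R. Its signal was 44865, rank 9 of the whole set, and it was 21870.7 in replicate 1, 14392.5 in replicate 2 and 8720.7 in replicate 3. The peak ranked 7, 7 and 24 in the 3 lists. No other thresholded summit lay within 500 bp of that TSS, and a second TSS of Psc lay 180 bp beyond the summit, so the summit was also upstream of a start site. A further pair of members fell at Polycomb genes. At ph-p (polyhomeotic proximal, another subunit of the same complex, X:2137959) the summit lay 412 bp downstream, with replicate signals of 931.4, 802.6 and 712.9. At Su(z)2, the neighbour and relative of Psc, it lay 119 bp downstream, with replicate signals of 543.6, 834.7 and 444. It was the weaker of 2 summits in its region, at 0.037 times the signal of the other. Of 17 Polycomb group genes matched, these 3 had a member, and 11 had a promoter peak of any class. Over all 13945 protein-coding genes, 269 (1.93%) had a member and 4265 (30.6%) a promoter peak of any class.

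The next members by strength were in genes of diverse function. SREBP (FBgn0261283), 447 bp downstream in an intron, had a pooled signal of 17161 and replicate signals of 9963.9, 5381.5 and 2282.5. milt, which encodes the adaptor that links mitochondria to kinesin, had a summit 164 bp downstream in the 5′ UTR and replicate signals of 6497.8, 4013.2 and 2815.3. drm, a zinc-finger gene of gut and leg development, differed in order: its intronic summit 465 bp downstream had 4565.9, 3337.6 and 4739.3, highest in replicate 3. CG17292 (169 bp, 5′ UTR) had 3500.2, 2416.0 and 913.3, and its summit lay 29 bp from the TSS of a non-coding RNA, asRNA:CR45341. mael, a gene of the piRNA pathway, followed with 2685.9, 1934.6 and 852.3 at 289 bp in the 5′ UTR. Gk2, a glycerol kinase gene, had 2570.3, 1588.0 and 674.7 at 263 bp in an intron, beside a stronger summit of 5577.4 within 500 bp of the same TSS.

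The remaining genes among the 20 strongest members were Cul1, the cullin scaffold of SCF ubiquitin ligases, Gdap2, Pka-R2, a regulatory subunit of protein kinase A, D2hgdh, Cdc42, dikar, Sox102F, a Sox-family transcription factor, dmrt11E, a doublesex-related gene, CG31612, FBXO11, an F-box protein gene, and Ada2b, a subunit of the SAGA acetyltransferase complex. All 20 were found in all 3 full replicate lists. Of the 20 summits, 12 were intronic, 7 lay in a 5′ UTR and 1, at D2hgdh, in a coding exon, and 9 lay more than 400 bp downstream. The signal was highest in replicate 1 at 18 and lowest in replicate 3 at 17 of them. The same order held widely: of the 185 members with a value in every list, 157 were highest in replicate 1 and 156 lowest in replicate 3. Signals were not scaled between lists, so this order holds differences in scale.

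**Figure D1:**
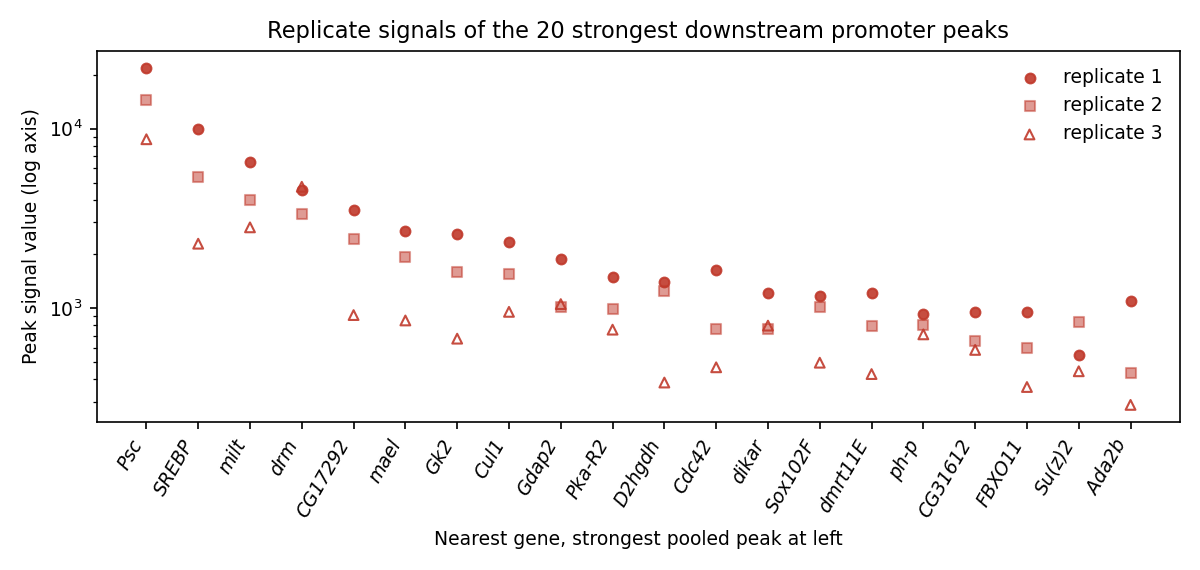
Peak signal value (log axis) of the 20 strongest downstream promoter peaks in each replicate's list, by nearest gene, with the strongest pooled peak at left. Psc stands above all others in each replicate, and replicate 1 is highest at 18 of the 20.

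Summits were not spread evenly over the window. There were 124 between 101 and 200 bp, 65 between 201 and 300, 40 between 301 and 400 and 53 between 401 and 500, with a median of 228 bp. Set against the number of bases of each bin, this was 85.2, 43.4, 26.2 and 34.3 summits per Mb of positions. Upstream of the TSS the same bins held 499, 332, 217 and 116 per Mb. Upstream density fell over every bin, while downstream density was higher in the last bin than in the one before it, where own-list counts were close: 57, 50 and 40 in the 401 to 500 bp bin against 56, 43 and 37 in the 301 to 400 bp bin. The last bin also had the highest median signal, 515.8, against 364.3 to 373.7 in the other bins. At the edges of the definition, 35 summits lay at 101 to 120 bp with a median signal of 463.8 and 49 at 81 to 100 bp, counted as core, with 362.5. At the outer edge, 12 lay at 481 to 500 bp (median signal 670.6) and 11 at 501 to 520 bp (653.5).

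**Figure D2:**
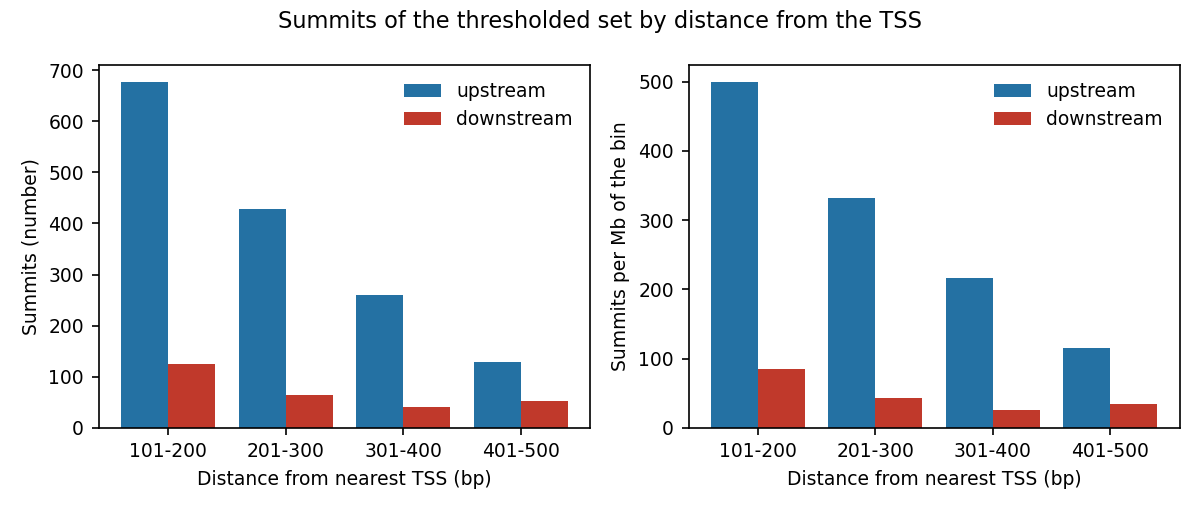
Number of thresholded summits (left) and summits per Mb of the bin (right) by distance from the nearest TSS in bp, for upstream and downstream promoter peaks without head-to-head ones. Downstream bars run from 124 to 40 summits and stay below the upstream bars in every bin.

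The strength of downstream peaks differed from that of core peaks by less than the spread between replicates, and it was below that of upstream peaks. In replicate signals, the median log2 signal of the members minus that of core peaks was 0.19, −0.03 and −0.08 (mean 0.03 ± 0.14, SD, n = 3; exact permutation p = 1). Against upstream peaks it was −0.42, −0.37 and −0.69 (mean −0.49 ± 0.17, SD, n = 3; exact permutation p = 0.25), lower in 3 of 3. Each of these medians covers only peaks with a summit within 100 bp in that replicate's list. In replicate 3 these were 70.9% of members, 81.5% of core and 88.75% of upstream peaks. Peaks without such a summit have no value, so their strength was not compared. The median peak width was 480 bp and ranged from 120 to 2626 bp. The median was 440.5 bp for core peaks of the same set. In the replicates' own lists the medians of downstream, core and upstream peaks were all 510, 460 and 420 bp, which were also the medians of the whole lists, so they separate no classes. Over the strongest 50% of each own list, downstream peaks were 54.3 ± 49.2 bp wider than core peaks (SD, n = 3; exact permutation p = 0.5).

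The members were found again less often in replicate 3 than other promoter peaks were. A summit within 100 bp was present in the 30000-peak list of replicate 1 for 267 members (94.7%), of replicate 2 for 262 (92.9%) and of replicate 3 for 200 (70.9%). The same shares for core peaks were 95.0, 95.5 and 81.5%. The difference was −0.35, −2.56 and −10.6 percentage points (exact permutation p = 0.25), so its size rests on replicate 3: without it the mean was −1.45 points, against −4.49 with it. With summits matched within 200 bp it was −0.70 ± 2.22 (SD, n = 3; exact permutation p = 0.75). Against upstream peaks it was 0.11, −0.80 and −17.8 points (exact permutation p = 0.5). In all 3 lists stood 185 members (65.6%), beside 80.9% of all thresholded peaks, 74.9% of core and 79.9% of upstream peaks. Of the 97 others, 65 were missing from replicate 3 alone. Among the 7476 strongest peaks of all 3 replicates stood 112 members (39.7%), beside 56.2% of all thresholded peaks.

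A match allowed a shift of at most 100 bp. Of the matched summits, 86.9, 88.2 and 85% were still downstream in replicates 1, 2 and 3, and the median shift was 20, 17 and 20.5 bp. Most of the rest moved to the core window, 24, 21 and 17 summits. In all, 135 members (47.9%) had a downstream summit in each of the 3 lists.

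The strongest members missing from a list were in named genes too. Cftr, a homologue of the human chloride channel gene, had a summit 200 bp downstream with 621.1 in replicate 1 and 272.6 in replicate 3, and none in replicate 2. lin-28, which encodes a regulator of let-7 microRNA processing, had 711.8 and 310.7 in replicates 1 and 2 at 113 bp and none in replicate 3, beside a second member at 462 bp with 371.1, 238.6 and 114.5. CHES-1-like, a forkhead-family gene, was missing from replicate 1 and had 325.8 and 161.6 in the others. The weaker of the 2 members at Pka-R2 (483.8 and 284.7) and the member at GstE12, a glutathione transferase gene (365.2 and 258.9), were missing from replicate 3.

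By annotation, few summits lay in coding sequence, though a larger share than over all thresholded peaks. Of the 282, 140 lay in a 5′ UTR (49.6%), 117 in an intron (41.5%), 23 in a coding exon (8.16%) and 2 in a 3′ UTR of a protein-coding transcript. Of all thresholded peaks, 13.2% lay in a 5′ UTR, 39.1% in an intron and 1.19% in a coding exon. Coding exons held 0.70% of core and 0.54% of upstream peaks, against 9.64 and 7.81% of positions in their own windows. In the replicates' own lists, coding exons held 7.13 ± 0.22% of downstream summits (SD, n = 3) but 48.4% of all positions in the same window. The 5′ UTR share was 52.2 ± 3.14%, against 23.1% of positions, and the intron share 40.3 ± 3.41%, against 26.4%. All 3 differences had one sign in 3 of 3 replicates and were at least 3 times their SD: −41.3 ± 0.22, 29.1 ± 3.14 and 13.8 ± 3.41 percentage points (exact permutation p = 0.25 each). A position was counted as coding where any transcript was coding, then as 5′ UTR, so the shares depend on that order. Positions were not matched to the summits in distance from the TSS, and 124 of the 282 members lay at 101 to 200 bp. How much of these differences goes with distance was not tested.

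**Figure D3:**
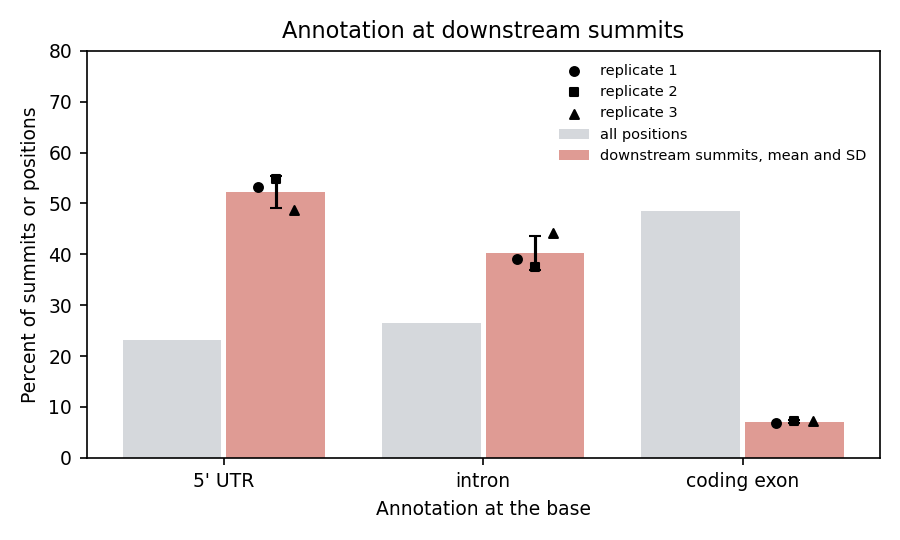
Percent of downstream summits in the replicates' own lists (red bars, mean and SD; symbols, replicates) and of all positions in the same window (grey bars) in 5′ UTRs, introns and coding exons of protein-coding transcripts. Coding exons hold 48.4% of positions and 7.13% of summits.

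Intronic and exonic members differed in place and strength. The 117 intronic members had a median distance of 295 bp from the TSS and a median signal of 426.6, and 71.8% were in all 3 lists. The 140 members in 5′ UTRs had a median of 168 bp and 367.8, with 61.4% in all 3 lists, and the 23 in coding exons 182 bp, 351.5 and 56.5%. Introns took 19.4% of members at 101 to 200 bp and 62.3% at 401 to 500 bp. Among the 70 strongest members, 39 were intronic, against 21 of the 70 weakest. On the transcripts that start at the nearest TSS, 120 members lay outside every exon. Their first exons were short, with a median of 145 bp, and the summit lay a median of 119 bp past the end. For the 141 members that were exonic in every such transcript the median first exon was 461 bp.

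The members often shared their surroundings with other summits. Of the 282, 160 (56.7%) were the only thresholded summit in their merged region, against 76.3% of all thresholded peaks and 80.5% of core peaks. Of the 122 in shared regions, 40 were the strongest summit there and 82 were not. Another thresholded summit lay within 500 bp of the same TSS for 117 members. For 76 of them that other summit was stronger. Even so, 124 of the 269 genes had no core, upstream or head-to-head summit within 500 bp of any of their TSSs. No share over other peaks or genes was taken for the counts of 117, 76 and 124. The members that were alone differed little from the set in signal, with a median of 379, and 73.1% of them were in all 3 lists, against 55.7% of those in shared regions.

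Genes with several TSSs were common among the members. Of 282, 191 (67.7%) had a nearest gene with more than 1 TSS, against 55.1% of core and 56.8% of upstream peaks and 47.7% of all TSSs. In own lists the share was 66.9 ± 4.88% (SD, n = 3), 12.3 ± 6.98 percentage points above core and 11.1 ± 6.54 above upstream peaks, and higher than both in 3 of 3 replicates. For 29 members a further TSS of the same gene lay within 500 bp beyond the summit. There were 3 summits within 100 bp of the TSS of a non-coding RNA. No share over other peaks was taken for these counts of 29 and 3, so they only describe the members.

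The share of members with the NF-Y pentamer was close to that of all thresholded peaks and of all positions in the window. CCAAT lay within 100 bp of the summit, on either strand, at 101 of 282 (35.8%), beside 38.1% of all thresholded peaks and 36.7% of all positions in the downstream window. In the own lists the share was 40.2, 36.3 and 38.5%, which was 3.51, −0.41 and 1.75 percentage points from the positions (exact permutation p = 0.5), within the spread between replicates. The same difference was 3.11 ± 1.15 points for core and 4.20 ± 0.28 for upstream peaks (SD, n = 3), above in 3 of 3. The share minus that of core peaks was 3.18, 0.80 and 0.70 points (exact permutation p = 0.25), and minus that of upstream peaks 0.48, −3.61 and −0.90 (p = 0.5, the same exact test). Over strength, the share in the strongest 25% minus the weakest 25% was −6.67, 14.1 and 2.08 points downstream (exact permutation p = 0.75), while it was 15.1, 12.3 and 15.8 in core and 12.7, 14.7 and 10.6 in upstream peaks. Over the strongest 50% of each own list the downstream value was 19.5 ± 6.77 points (SD, n = 3; exact permutation p = 0.25), so it depended on how many peaks were taken. Whether these trends with strength differ between the classes was not tested. Density within 50 bp of the summit was 1.47, 0.99 and 1.19 times that at 300 to 500 bp for downstream peaks, a mean of 1.22 ± 0.24 (SD, n = 3), and 1.23 ± 0.03 for upstream peaks. Among the 20 strongest members 11 had the pentamer.

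A dinucleotide repeat was more frequent at the members than at core, upstream or all thresholded peaks, or at positions in the window. The hexamer ACACAC, or its reverse complement GTGTGT, lay within 100 bp of the summit at 91 members (32.3%), beside 19.6% of all thresholded peaks and 14.4% of all positions in the window. It was searched as 1 of 8 motifs after earlier results of these data were known. In the own lists the share was 33.3, 32.2 and 33.8%, a mean of 33.1 ± 0.86% (SD, n = 3). Core peaks had 17.9 ± 0.59% and upstream peaks 16.0 ± 1.49%. Peaks outside promoters, in introns or elsewhere, were not compared on their own. The difference from core peaks was 15.2 ± 0.81 percentage points and from upstream peaks 17.1 ± 2.23 (SD, n = 3; exact permutation p = 0.25 each), higher in 3 of 3 replicates and many times the SD. Untagged chromatin, input reads and mappability were not analysed here, so whether the repeat would also mark peaks without the tag was not tested. Leaving out members in shared regions changed little: 47 of the 160 that were alone had it (29.4%). Over strength, the share was 30, 34.6 and 29.2% in the strongest and 30, 34.6 and 43.8% in the weakest 25% of the own lists.

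The frequency of the repeat also varied with the annotation. Of all positions in the window, 27.4% of those in 5′ UTRs, 19.2% in introns and 5.83% in coding exons had the repeat within 100 bp. With positions weighted to the annotation of the summits, the share of positions was 22.5%. The summits stayed above this by 10.4, 9.56 and 11.6 points, a mean of 10.5 ± 1.04 (SD, n = 3; exact permutation p = 0.25). Within introns the excess was 15.1 ± 1.93 points and within 5′ UTRs 8.31 ± 0.42, each above 0 in 3 of 3 replicates. In coding exons it was 0.67 ± 1.91 points and within the spread between replicates. Weighted in the same way, CCAAT was 5.02, 1.18 and 3.10 points above the positions, a mean of 3.10 ± 1.92 (exact permutation p = 0.25). It was thus above in 3 of 3 replicates, and by 0.72 points in the thresholded set. Core and upstream peaks were not weighted in this way.

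**Figure D4:**
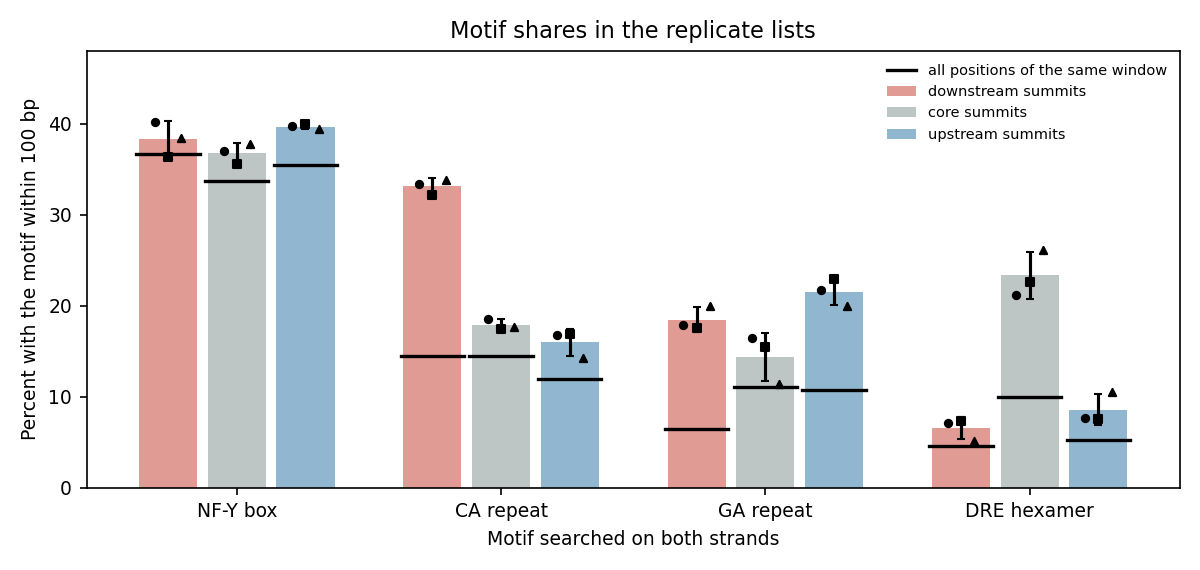
Percent of downstream, core and upstream summits in the replicates' own lists with a motif within 100 bp (bars, mean and SD; symbols, replicates) and of all positions in the same windows (black lines). The NF-Y box is CCAAT, the CA repeat ACACAC, the GA repeat AGAGAG and the DRE hexamer CGATAG; the CA repeat is at 33.1% of downstream and 17.9% of core summits.

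The repeats were denser around downstream summits than in their flanks. Matches to the hexamer lay within 50 bp of downstream summits at 2.11, 2.32 and 2.32 times their density at 300 to 500 bp in replicates 1, 2 and 3, a mean of 2.25 ± 0.12 (SD, n = 3). The ratio was 0.92 ± 0.07 at core and 0.80 ± 0.06 at upstream summits, so the groups of replicates do not overlap. Overlapping matches of a long run each count here, so long runs weigh more. The flanks were not matched to the summits in annotation, and whether annotation accounts for the ratio was not tested. The rise was broad. Bins of 100 bp ran along the chromosome and were not turned to the gene's strand. The density was highest at 50 bp in replicates 1 and 2, with 5.813 and 5.955 matches per kb. In replicate 3 it was highest at −50 bp (7.385), with 5.487 at −250 bp and 3.949 at 50 bp. The median longest run at the 91 members was 9 bp and the longest 22 bp. By strand, 12.2 ± 1.54% of own-list summits had the repeat reading ACACAC on the gene's strand and 24.5 ± 1.99% had it reading GTGTGT (SD, n = 3). All positions in the window leaned the same way, with 5.67 and 9.50%.

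**Figure D5:**
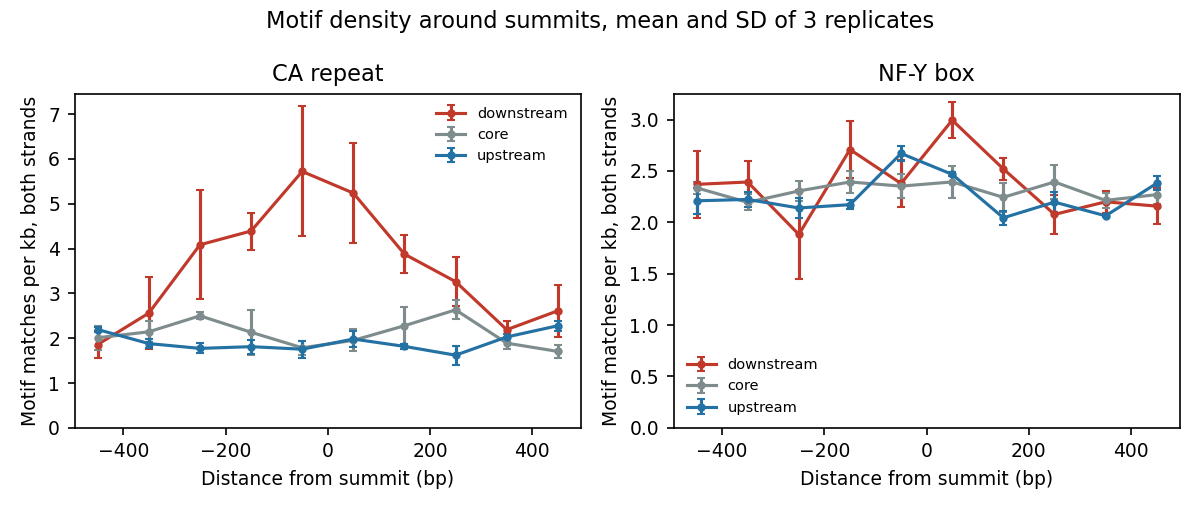
Motif matches per kb on both strands by distance from the summit in bp along the chromosome, in 100-bp bins, for the CA repeat (left, ACACAC) and the NF-Y box (right, CCAAT), as mean and SD of the 3 replicates' own lists. The CA repeat rises broadly around downstream summits, while core and upstream summits show no such rise.

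To show the repeat in place, the 6 strongest members that had it and lacked CCAAT within 100 bp, off the same arm as before, are printed 5′ to 3′ on the strand that reads the AC repeat. The uninterrupted run nearest the summit is in capitals. They were chosen after the motif shares were seen.
FBXO11, chr3R:9809005-9809032, minus strand, 5' UTR: ggcacactcgCACACACAtacacatgca
Agpat4, chr3L:16381102-16381129, plus strand, intron: ttctcatttACACACACACtcactcacc
Pgant5, chr2L:5093029-5093101, plus strand, intron: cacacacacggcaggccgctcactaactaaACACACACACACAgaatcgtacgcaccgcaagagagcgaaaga
Sxl, chrX:7096778-7096806, minus strand, intron: aaaagacaacaACACACAtgcatacagtc
Oatp74D, chr3L:17487203-17487231, minus strand, intron: ctcgcactCACACACACACACtctcacgc
Abcd3, chrX:19750938-19750966, minus strand, 5' UTR: aaagtgattgtCACACACggcgggcgctt

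FBXO11 and Abcd3, an ABC transporter gene, carry the run in the 5′ UTR. Agpat4, an acyltransferase gene, Pgant5, an O-glycosyltransferase gene, and Oatp74D, which encodes the importer of the steroid hormone ecdysone, carry it in an intron. So does Sxl, the switch gene of sex determination, whose run lies 88 bp from a summit with replicate signals of 304.3, 302.9 and 180. At Abcd3 the run lies 3 bp from the summit, with 333, 251.6 and 56.68. At Oatp74D it is 13 bp long and 40 bp away, with 295.2, 282.4 and 109.1. At FBXO11, Agpat4 and Pgant5 the run lies farther off, 96.5, 97.5 and 84 bp from the summit. The median distance over the 91 members with the repeat was 38.5 bp. The pooled signals of the printed members ran from 632.1 at Abcd3 to 1896.5 at FBXO11, above the upper quartile of all members, 610.9. They were picked for strength. The median over all members with the repeat was 359, against 410.2 without.

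Of the other motifs searched, those of the core promoter were less frequent downstream than at core peaks. AGAGAG, read by the GAGA factor encoded by Trl, was at 51 members (18.1%), beside 17.3% of all thresholded peaks and 6.45% of positions in the window. In the own lists it was at 18.5 ± 1.34% of downstream and 14.4 ± 2.65% of core peaks, a difference of 1.51, 2.09 and 8.59 points that was largest in replicate 3 (mean 4.06, and 1.80 without replicate 3), and at 21.6 ± 1.46% of upstream peaks. Over full replicate lists that difference from core peaks turned to −1.87 ± 0.18 points. The excess over annotation-weighted positions was 9.69 ± 1.36 points (SD, n = 3). CGATAG, a hexamer of the DNA replication-related element bound by Dref, was at 6.54 ± 1.22% of downstream and 23.3 ± 2.55% of core peaks, lower by 14.0, 15.3 and 21.0 points. It was at 4.64% of positions in the downstream window and 10% in the core window. Both classes of summits were above their own window, by 1.90 ± 1.22 and 13.3 ± 2.55 points. The longer form of the DNA replication-related element, TATCGATA, which can overlap the hexamer, was at 1.15 ± 0.58% of downstream and 11.3 ± 1.87% of core peaks. GGTCACAC, the core of the element known as Motif 1, was at 1.04 ± 0.22% and 10.7 ± 1.14%. Both elements are known from positions at or just before the TSS, and their shares over all positions were 0.25 and 0.39% in the downstream window and 3.66 and 3.48% in the core window. The E-box CAGCTG was at 9.28 ± 1.44% of downstream and 15.5 ± 0.45% of core peaks, and CAGGTA, read by the pioneer factor Zelda, at 3.54 ± 0.34% and 3.51 ± 0.43%. Of positions in the downstream and core windows, 10.4 and 11.45% had CAGCTG, and 5.71 and 4.54% had CAGGTA. For CAGGTA, downstream and core summits were thus below their own window, by 2.17 ± 0.34 and 1.03 ± 0.43 points. GC content within 100 bp of the summit had a median of 44.3% for members, the same as for core peaks, and 36.8% for upstream peaks.

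Gene groups were read by counts, beside 1.93% of all protein-coding genes with a member. Promoter peaks of any class lay at 30.6% of all these genes, and 6.31% of the genes with one had a member. Such peaks lay at 62.5% of the pausing and elongation genes, 65% of the heat shock and chaperone genes and 64.7% of the Polycomb group. Factors of polymerase pausing and elongation had members at 4 of 16 genes: Hexim, which encodes the inhibitor of the kinase P-TEFb, CycT, the cyclin of that kinase, Trl, and Su(Tpl), the fly homologue of the elongation factor ELL. Their pooled signals were 588.4 at Hexim, 541.3 at CycT, 520.8 at Trl and 252.5 at Su(Tpl), beside a median of 394.8 over the members. Trl had 218.7, 158.9 and 148.1 in replicates 1, 2 and 3. The other 3 had no summit in replicate 3, with 286.9 and 178.9 at Hexim, 277.1 and 210 at CycT and 171.8 and 85.75 at Su(Tpl) in replicates 1 and 2. Heat shock and chaperone genes had 4 of 20: Gp93, an endoplasmic reticulum Hsp90, with 271.3, 136.9 and 83.77, Hsc70-3, the Hsp70 of the same compartment, with 255.2 and 20.46 in replicates 1 and 3 alone, Hsp22, a small heat shock protein gene, with 251.6 and 42.44 in replicates 1 and 2, and DnaJ-1, an Hsp40 gene, with 158.4 and 170.2 in the same. No gene of either group but Trl and Gp93 was in all 3 lists.

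Apart from the Polycomb group, each other list had at most 1 gene. They were hb, a gap gene, among 24 segmentation genes (247 bp downstream; 408.3, 294 and 109.2), Eip75B, an ecdysone-induced nuclear receptor gene, among 20 (107 bp; 261.9, 201.3 and 139.6), and mib1, a ubiquitin ligase gene of Delta endocytosis, among 19 Notch pathway genes, found in replicate 2 alone (179.2). grh, a transcription factor gene of epidermis and neuroblasts, was the only one of 20 neuronal factor genes (138.9 and 107.9 in replicates 1 and 2). RpS29 was the only one of 86 cytosolic ribosomal protein genes (167.6 and 118.7 in replicates 1 and 2), although 68 of the 86 had some promoter peak. Trl was also the only one of 14 promoter and GA-repeat factors and of 17 trithorax group genes and remodellers. No member was at the 8 Hox genes, all of which had a promoter peak of another class, at 19 epidermal growth factor pathway genes, at 19 cell cycle genes or at the 3 NF-Y subunit genes.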

How the data were processed

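ChIP-seq peak lists for Nf-YC-eGFP embryos were used as deposited: 1 list of 30000 peaks per replicate, a pooled list of the same length, and the thresholded set of 7476 peaks. The authors' caller gave a signal value per peak, deposited as a score with no unit, which served to describe and rank peaks. The deposited −log10 q-values were not used for ranking. The build is dm6, per the labels. The labels and headers name no aligner, caller or threshold, and library depth is unknown.

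A summit was the start plus the summit offset of the deposited lists, in 1-based coordinates. TSSs, exons and introns came from Ensembl release 115 (BDGP 6.54), and sequence from the RefSeq copy of Release 6. Own-list values use the 7476 strongest peaks of each replicate, and signals are on a log2 scale in comparisons, taken from the deposited scores. Motifs were searched on both strands within 100 bp. Replicate differences were tested with an exact sign-flip permutation test. Peaks are not replicates, so no test over peaks was run. Whether replicates came from separate embryo collections is not stated beyond the word biological, so the spread may be partly technical. Scripts (Python 3.11.15, numpy 2.4.6, pandas 2.3.3, matplotlib 3.10.9) were checked on simulated data.

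Named genes are those nearest the 20 strongest members, up to 3 members of each of 14 gene lists (the fourth of 2 lists is named too, as is the second member at lin-28), and the 5 strongest members missing from a replicate list. Members, motifs and lists were chosen with earlier results of these data known. Nelf-B, nos and Dl were not matched by symbol.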

Additional observations from a re-analysis of the deposited data

How the results depend on the processing

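No paired analysis was possible because the labels give 1 group only, so no groups share replicate numbers; differences between peak classes were taken within each replicate. Each result was recomputed under other TSS definitions, windows, peak sets, summit rules, motif windows and with each replicate left out. Of 157 recomputed values, 138 kept their direction or stayed within 1.5 times the count, 11 changed sign and 8 counts moved further. The 138 include 10 for peak width, whose reported difference from core peaks was 0. With no direction to keep, these 10 could not be counted as changed. They ran from 0 to 54.3 bp. The 2 results on the CA repeat, whose alternatives were added after its values were seen, kept their direction in all 24, at 9.10 to 17.8 percentage points above core peaks and 11.97 to 24.3 above positions. With the upper 50% of the thresholded set there were 115 members at 112 genes. Requiring a summit among the strongest peaks of both remaining replicates left 124 to 182 members at 125 to 176 genes. The log2 signal difference from core peaks was −0.062 with head-to-head peaks kept, −0.022 with windows from 150 bp and, leaving out each replicate, −0.053 (without replicate 1) to 0.081 (without replicate 3). For CCAAT, the difference from core peaks was −2.33 points over the strongest 50% of the peaks. The difference from upstream peaks was 1.18 with windows from 150 bp, 0.87 with peak midpoints, 0.32 over full replicate lists and 1.59 within 200 bp. The strongest 25% minus the weakest 25% was −0.034 over full lists and, leaving out each replicate, −2.29 (without replicate 2) to 8.09 (without replicate 1), against 3.17 as reported and 19.5 over the strongest 50% of the peaks. The AGAGAG difference from core peaks was −1.87 over full lists. The cause was not tested in any of these. The exact sign-flip permutation test cannot go below p = 0.25 with 3 replicates under any setting.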
